A study of Oryza sativa Indica Group with 45 samples.

Results

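The genes described here make sucrose, split it, phosphorylate the resulting hexoses or carry these sugars across membranes in rice. They were chosen by name, as genes whose RefSeq symbol or synonym reads SUS, SUT, SPS, SWEET, CIN, INV, HXK, FRK or MST followed by a number. The rule matched 51 genes, of which 42 had a probe set that the array annotation pairs with 1 gene, among 17905 such genes on the array. Of these 42, 31 passed the filter on low values, which asks for a mean of at least 5 (log2 intensity) in any group. They were tested with all other probe sets that passed, 24130 in all. The 11 that did not (SUS3, CIN3, HXK4, HXK3/HXK8, SPS2F, SUT5, SWEET5, SWEET11, SWEET12, SWEET15 and MST5) had no group mean above 3.91. The other 9 (SUS7, CIN5, CIN6, HXK1, HXK5/HXK9, HXK10/HXK7, FRK2, SWEET3a and SWEET13) had no probe set of their own, FRK2 because its only one is shared by 2 genes. Several hexokinase genes carry 2 published numbers, and both are given.

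Transcript levels were measured on Affymetrix arrays in 3 indica rice genotypes, the female parent PMS80 (the B line), the male parent PR319 (the R line) and their hybrid MRP5401. Leaves and roots came from hydroponic seedlings of 14 days (young leaf, young root) and from plants of 40 to 60 days (mature leaf, mature root), and flag leaves, the last leaf below the panicle, from plants of 90 days. Each of the 15 groups held 3 arrays that the labels call biological replicates, so the number of arrays limits the precision. Levels are log2 intensities, differences are log2 values ± SE (limma, all 45 arrays), and a gene is said to be higher or lower, to rise or to fall only where its adjusted p was under 0.05.

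Leaves export most of their carbon as sucrose, which is built through sucrose-phosphate synthase (SPS) and loaded into the phloem by proton-coupled sucrose transporters (SUT), while SWEET proteins let sugars pass membranes down their gradient. In roots and other importing organs sucrose is split either by sucrose synthase (SUS), which keeps the energy of the bond in UDP-glucose, or by invertases (CIN for those of the cell wall), which yield glucose and fructose. Monosaccharide transporters (MST) take up the hexoses, and hexokinases (HXK) and fructokinases (FRK) phosphorylate them for use in the cell.

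Group means below 5 lie near background. Where 1 of a pair of means does, it was set to 5 and the difference is printed as "at least", and where both do, they have no order. The median intensity of a group was 6.75 to 7.69 on the scale before log2, which lies under the log2 level of 5. Arrays of 1 group correlated at 0.979 to 0.994 on average. The R line young leaf arrays had the lowest of these correlations, the highest median and the strongest hybridization spike-ins (13.14, against 12.24 in the B line and 11.44 in the hybrid). In mature leaves the spike-ins stood at 12.68 in the B line, 11.83 in the hybrid and 11.77 in the R line. R line mature roots had the lowest 3' index, the 3' minus 5' signal of 4 control genes (1.59, against 3.71 and 3.63). Mature leaves lay at 2.21 to 2.59 where young leaves lay at 3.70 to 4.34 and flag leaves at 3.47 to 4.13. A list of 9 green-tissue genes averaged 13.34 to 14.22 in leaves and 3.12 to 3.35 in mature roots, but 9.54, 11.63 and 9.23 in young roots of the B line, the hybrid and the R line. The 11 root marker genes averaged 7.71 to 9.39 in roots and 3.74 to 4.44 in leaves, and the 4 markers of starchy or reproductive tissue stayed at 2.66 or less everywhere. Not every root marker followed that average. LSI1/NIP2-1 stood at 9.18 to 10.66 in young and mature leaves, IRT1 at 3.40 to 3.53 in young roots and NAS2 at 2.71 to 3.34 in mature roots. The part of these differences in the results below was not tested except where a value is given.

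Most of the variation in these genes lay between stages. The median gene had 84.7% of its variance over the 45 arrays between the 5 stages, 1.22% between genotypes, 9.86% in the combination of both and 3.01% between replicates. Over all tested probe sets these medians were 77.3%, 2.28%, 10.8% and 5.96%. The genotype share exceeded 20% for SUS6 (27.2%), SUS5 (24.8%) and SWEET1a (20.9%) alone among the 31. By the mean of 9 arrays, 10 genes had their highest level in mature roots, 9 in young roots, 6 in mature leaves, 5 in young leaves and 1, CIN4, in flag leaves. Levels at or above 5 in all 15 groups were found for 15 genes.

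**Figure D1:**
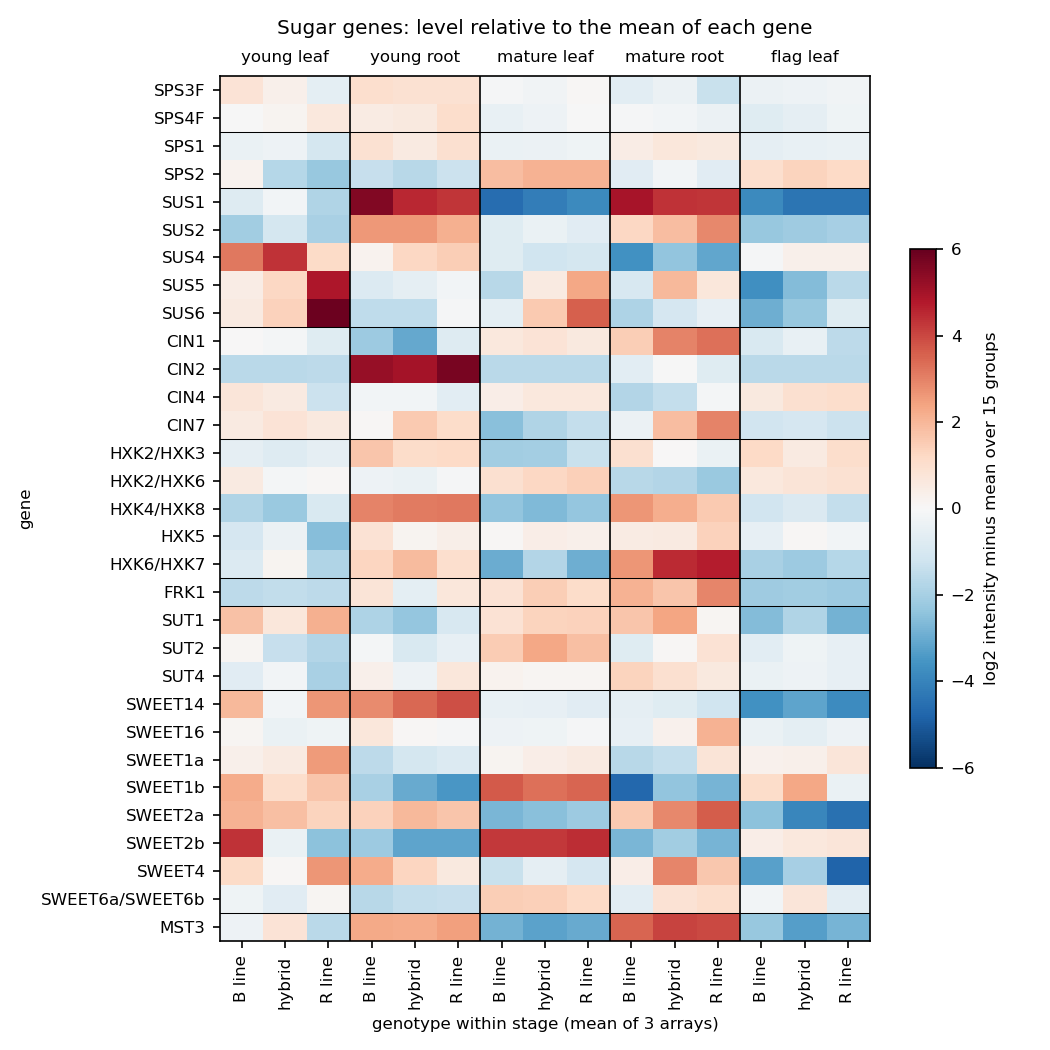
Heat map of the 31 tested sugar genes (rows, by family) in 15 groups (columns, 3 genotypes within each of 5 stages). Colour is the mean log2 intensity of 3 arrays minus the mean of that gene over the 15 groups. SUS1 and MST3 are red in both root stages, CIN2 is red in young roots alone, and SUS5 and SUS6 shift from B line to R line within the leaf stages.

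Leaf was first compared with root. In seedlings 26 of the 31 genes differed, 10 higher in leaf and 16 higher in root, where 81.3% of all tested probe sets differed (28.1% higher in leaf, 53.2% lower). In plants of 40 to 60 days 27 differed, 11 higher in leaf and 16 higher in root, where 86.4% of all probe sets did (35.2% and 51.3%). Both shares are thus near the background, and what the genes show is which member of each family sat in which organ. At both ages 7 were called higher in leaf (SWEET1a, SWEET1b, SWEET2b, SWEET6a/SWEET6b, SUS4, SUS6 and HXK2/HXK6) and 12 higher in root. CIN1, SPS3F and SUT2 went in opposite directions at the 2 ages, SUT2 not by its second probe set. The 12 include CIN2 and SWEET16, which were under 5 in leaf and root means of at least 1 age and have no order there. These calls are on means over the genotypes. In the R line SUS4 in seedlings (-0.32) and SWEET1a in older plants (-0.22) were not higher in leaf. Both R line means of SWEET2b in seedlings were under 5 and have no order. In hybrid seedlings SUT4, 1 of the 12, had a leaf minus root difference of 0.11. Leaf minus root of SUT2 in the B line was positive at both ages (0.22 and 2.26). For CIN1 in R line seedlings it was 0.035. In whole organs, fewer cells of a type and less RNA per cell cannot be told apart. The 9 arrays of leaf and the 9 of root did not overlap for 13 genes in seedlings and 17 in older plants. No such count was made over all probe sets, so these counts are not read as a trait of the sugar genes.

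Among the sucrose synthases, SUS1 and SUS2 were higher in root at both ages, and SUS2 was at 5 or more in all 15 groups. SUS1 ran from 11.43 to 12.81 (median 11.80) on the 9 young root arrays and from 11.07 to 12.65 (median 11.65) on the mature root arrays. On young leaf arrays it ran from 3.59 to 7.42 (median 6.54), and no mature leaf array exceeded 4.27. Roots and leaves thus shared no value at either age, and SUS1 was lower in leaf by 5.69 ± 0.25 in seedlings (adjusted p = 4.41e-21) and by at least 6.72 later (adjusted p = 5.25e-27). SUS2 ran from 13.20 to 14.33 in young roots and from 9.02 to 11.08 in young leaves, again with no overlap, a leaf minus root difference of -4.14 ± 0.18 (adjusted p = 2.22e-21), and in older plants of -2.60 ± 0.18. SUS4, SUS5 and SUS6 lay the other way in seedlings. SUS6 averaged 8.28 in young leaves and under 5 in young roots, at least 3.28 higher in leaf (adjusted p = 1.42e-12), and SUS5 was 2.68 ± 0.24 higher (adjusted p = 2.1e-12). In older plants SUS6 stayed at least 2.19 higher in leaf (adjusted p = 2.35e-09), but for SUS5 leaf minus root was -0.16 ± 0.24 on average (adjusted p = 0.535), with -0.72 in the B line, -1.41 in the hybrid and 1.66 in the R line. The leaf levels of both depended on genotype, as given with the parents.

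The invertases split by root age. CIN2, which the annotation also calls GIF1 and which is known in rice for its part in grain filling, ran from 8.58 to 9.99 on the 9 young root arrays. Every other group mean was under 5, and 1 single array, of the hybrid mature root, reached 6.02. CIN2 was thus lower in young leaf than in young root by at least 4.37 (adjusted p = 1.79e-21) and lower in mature than in young root by at least 4.37 (adjusted p = 5.8e-19). CIN1 took the opposite course in roots, from 5.91 to 8.61 (median 7.13) in seedlings and from 10.32 to 12.64 (median 12.37) in older plants, a rise of 4.59 ± 0.15 (adjusted p = 2.32e-24) with no shared values. CIN7, also named INV1, was 3.40 ± 0.13 lower in mature leaf than in mature root (adjusted p = 1.44e-23). It lost 2.55 ± 0.13 from young to mature leaf (adjusted p = 6.62e-19). CIN4 was the invertase that was higher in leaf of older plants, by 1.66 ± 0.16, and in seedlings its difference did not pass (adjusted p = 0.0629).

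Of the 5 tested hexokinases 4 were higher in root at both ages and 1, HXK2/HXK6, higher in leaf. HXK4/HXK8 ran from 9.58 to 10.31 in young roots and from 3.96 to 6.15 in young leaves, which do not overlap, so that leaf lay 4.72 ± 0.17 below root (adjusted p = 2.54e-23), and in older plants at least 3.87 below (adjusted p = 2.25e-23). HXK6/HXK7 was lower in mature leaf than in mature root by at least 4.80 (adjusted p = 1.64e-18) and rose by 2.54 ± 0.35 from young to mature root (adjusted p = 6.98e-08). HXK2/HXK6 was 3.11 ± 0.11 higher in mature leaf (adjusted p = 1.72e-24) and fell by 1.63 ± 0.11 with root age (adjusted p = 8.96e-16). The probe sets of HXK4/HXK8 and HXK2/HXK6 are of the kinds that may cross-hybridise, as are those of SWEET11 and SWEET14. FRK1, a fructokinase, was higher in root at both ages. It rose from young to mature root by 1.93 ± 0.24 (adjusted p = 8.71e-09) and from young to mature leaf by at least 2.38 (adjusted p = 7.37e-12).

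MST3, a monosaccharide transporter, was the member of the transport families with the widest gap in favour of roots. Its 9 mature root arrays lay between 14.68 and 15.34 and its mature leaf arrays between 7.66 and 9.25. With no overlap, leaf minus root was -6.85 ± 0.23 (adjusted p = 1.34e-24) in older plants and -2.68 ± 0.23 (adjusted p = 1.16e-12) in seedlings.

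The SWEET genes divided between the organs. SWEET2b ran from 10.91 to 11.31 on mature leaf arrays and from 3.63 to 4.78 on mature root arrays, and SWEET1b from 10.68 to 11.48 and from 2.26 to 5.43. Neither gene had overlapping organs at that age. Mature leaf exceeded root by at least 6.10 for SWEET2b (adjusted p = 5.52e-30) and by at least 6.02 for SWEET1b (adjusted p = 6.3e-25). On means over the genotypes, young leaf exceeded young root by at least 2.28 (adjusted p = 4.23e-20) and 4.18 (adjusted p = 3.17e-19). For SWEET2b the fitted seedling differences were 6.52 in the B line, 2.75 in the hybrid and 0.67 in the R line. Both R line means were under 5. SWEET2a, which shares its clade number with SWEET2b, was lower in mature leaf than in root by at least 4.73 (adjusted p = 5.57e-22), while in seedlings its leaf minus root difference was 0.06 ± 0.22 (adjusted p = 0.791). SWEET4 was 2.62 ± 0.20 lower in mature leaf than in root. Its mean difference in seedlings, -0.07 ± 0.20 (adjusted p = 0.756), averages genotypes that went opposite ways, at -1.06 in the B line, -1.21 in the hybrid and 2.06 in the R line. SWEET16 passed 5 in R line mature roots alone, so its organs have no order.

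SUT1, the sucrose transporter of the rice phloem, ran from 7.47 to 9.67 in young leaves and from 4.42 to 6.54 in young roots, 3.22 ± 0.20 higher in leaf (adjusted p = 6.74e-17) without overlap. In older plants the organs overlapped and the mean leaf minus root difference was -0.19 ± 0.20 (adjusted p = 0.366), made of -0.81 in the B line, -1.04 in the hybrid and 1.28 in the R line. From young to mature root SUT1 rose by 3.08 ± 0.20 (adjusted p = 3.68e-16). SUT2, a transporter of the vacuolar membrane in rice, was 1.81 ± 0.12 higher in mature leaf than root by the probe set with the higher mean. A second probe set of SUT2 gave -0.68 there (adjusted p = 0.0166) and -1.76 in seedlings (adjusted p = 1.84e-07). It stayed under 5 in all 5 stages on average. Of the 2 sucrose-phosphate synthase genes tested, SPS3F was 0.76 ± 0.09 lower in young leaf than in young root and 0.69 ± 0.09 higher in mature leaf than in mature root. SPS4F was 0.44 ± 0.10 lower in young leaf, and in older plants its difference was -0.05 ± 0.10 (adjusted p = 0.622).

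**Figure D2:**
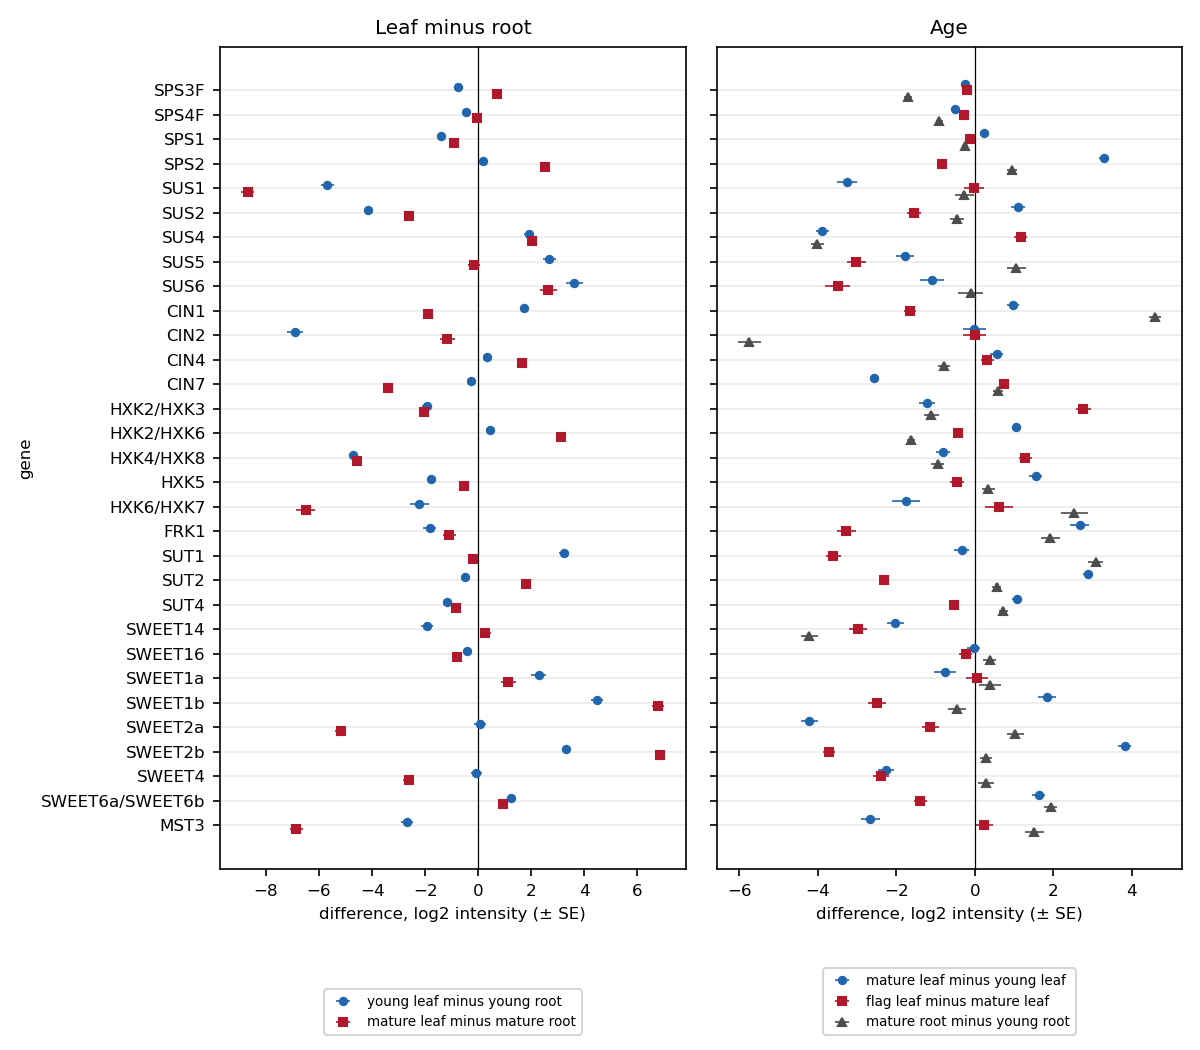
Differences in log2 intensity (± SE, averaged over 3 genotypes) for the 31 genes, leaf minus root at 2 ages on the left and 3 comparisons of age on the right, as fitted without the lower bound at 5. Most hexokinases, SUS1, SUS2 and MST3 lie left of 0 in the leaf minus root panel, and flag leaf minus mature leaf lies left of 0 for 18 genes that passed.

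Sucrose cleavage and transport genes also differed between young and mature leaves and between young and mature roots. Age cannot be told apart here from other differences between the seedlings and the older plants. From young to mature leaf 28 of 31 genes changed, 13 upward and 15 downward, where 65.7% of all tested probe sets changed (33.4% upward, 32.3% downward). With the 3' index as a covariate the count was 18, and that index differed between young and mature leaves as given above. SUS4 ran from 9.29 to 12.96 in young leaves and from 6.61 to 8.23 in mature leaves, a fall of 3.88 ± 0.17 (adjusted p = 5.85e-20) without overlap. SWEET2a fell by at least 3.76 (adjusted p = 2.07e-18), with young leaf arrays from 8.17 to 9.37 and no mature leaf array above 5.59. SUS1 fell by at least 1.30 (adjusted p = 7.91e-14), MST3 by 2.66 ± 0.23 (adjusted p = 3.41e-12) and SWEET4 by 2.26 ± 0.20 (adjusted p = 5.23e-12). SWEET2b rose by 3.82 ± 0.16 (adjusted p = 3.81e-21), yet its rise lay in the hybrid and the R line, since the B line difference was -0.09. SUT2 rose by 2.88 ± 0.12 (adjusted p = 3.19e-21), which its second probe set did not show (0.08, adjusted p = 0.845). SPS2 rose by 3.29 ± 0.12 (adjusted p = 1.93e-22). In rice SPS is also a symbol of solanesyl diphosphate synthases, and the annotation does not say which enzyme SPS1 and SPS2 encode, so no part in sucrose synthesis is ascribed to them.

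From young to mature root 24 genes changed, 13 upward and 11 downward, where 77.1% of all probe sets changed (31.2% and 45.9%). Besides CIN1, SUT1, HXK6/HXK7 and FRK1, SWEET6a/SWEET6b rose by at least 1.93 (adjusted p = 8.37e-13). All 3 SUT genes rose on average, SUT4 by 0.73 ± 0.11 (R line alone -0.13) and SUT2 by 0.56 ± 0.12 (B line alone -0.65), although the second SUT2 probe set was lower in mature root (-1.01, adjusted p = 0.000756). SWEET14, known in rice as a gene that the blight bacterium switches on in leaves, ran from 9.64 to 11.30 in young roots and from 4.64 to 6.95 in mature roots. It fell by 4.21 ± 0.22 (adjusted p = 2.34e-18) with no overlap. SUS4 fell by 4.01 ± 0.17 (adjusted p = 7.97e-21). SPS3F fell by 1.70 ± 0.09 (adjusted p = 3.87e-18) and SPS4F by 0.90 ± 0.10. The green-tissue list, which averaged 9.23 to 11.63 in young and at most 3.35 in mature roots, moved with this comparison.

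In flag leaves the balance was downward. Against mature leaves 22 of 31 genes changed, 4 upward and 18 downward, where 64.2% of all tested probe sets changed (33.2% upward, 31.0% downward). The median difference was -0.45 for the 31 genes and 0.00 for all probe sets. None of the 8 tested SWEET genes rose and 6 fell (SWEET2a with both means under 5), all 3 SUT genes fell, and SUS2, SUS5 and SUS6 fell while SUS4 rose. SUT1 ran from 7.49 to 8.93 in mature leaves and from 3.69 to 5.40 in flag leaves, lower by at least 3.29 (adjusted p = 1.36e-17) and without overlap. SWEET2b ran from 6.54 to 7.84 in flag leaves, below every mature leaf array, and fell by 3.71 ± 0.16 (adjusted p = 1.51e-20). SWEET1b fell by 2.49 ± 0.23 (adjusted p = 6.4e-12), SWEET4 by 2.39 ± 0.20 (adjusted p = 1.16e-12) and SWEET14 by at least 1.48 (adjusted p = 5.98e-14). FRK1 fell by at least 2.38 (adjusted p = 4.18e-14). SUS5 and SUS6 fell by at least 2.16 (adjusted p = 2.3e-13) and 2.19 (adjusted p = 8.27e-12). SUT2 fell by 2.32 ± 0.12 (adjusted p = 1.78e-18), but its second probe set gave -0.02 (adjusted p = 0.998). The gene that rose furthest was HXK2/HXK3, by at least 2.42 (adjusted p = 1.03e-14), where its second probe set, under 5 in both leaves on average, gave 0.39 (adjusted p = 0.0561). HXK4/HXK8, SUS4 and CIN7 also rose, by at least 0.57, by 1.17 ± 0.17 and by 0.76 ± 0.13.

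The parents were compared at each stage. R line minus B line called 18 of 31 genes in young leaves (6 higher and 12 lower in the R line), where 46.3% of all tested probe sets were called (17.3% higher, 29.0% lower). It called 11 in young roots (7 and 4), against 28.6% of all probe sets (16.8% and 11.7%), and 3 in mature leaves (3 and 0), against 15.2% (9.43% and 5.74%). It called 21 in mature roots (15 and 6), against 58.9% (27.7% and 31.3%), and 5 in flag leaves (2 and 3), against 12.7% (6.54% and 6.16%). In young roots the count depended on single arrays, being 7 without B line replicate 1, 6 without B line replicate 2 and 7 without R line replicate 1. In mature roots it was 10 with the 3' index as a covariate. FRK1 and CIN2 differed between the parents at no stage, while 10 genes were called in opposite directions at different stages.

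SUS5 and SUS6 differed between the parents at more than 1 leaf stage. They are close paralogs, and whether their probe sets share signal was not tested. In young leaves SUS5 stood at 7.90, 7.49 and 6.25 in the B line, 7.96, 8.21 and 7.83 in the hybrid and 11.75, 11.70 and 11.38 in the R line. SUS6 stood at 6.65, 6.78 and 5.30 in the B line, 6.92, 7.50 and 6.75 in the hybrid and 11.70, 11.58 and 11.37 in the R line. For both genes the 3 R line arrays lay far above the others, and R line minus B line was 4.39 ± 0.41 for SUS5 (adjusted p = 6.54e-11) and 5.31 ± 0.55 for SUS6 (adjusted p = 6.43e-10). The hybrid lay near the B line there, below the R line by 3.61 ± 0.41 (adjusted p = 5.88e-09) and 4.50 ± 0.55 (adjusted p = 2.27e-08). Against the B line it differed by 0.79 ± 0.41 (adjusted p = 0.142) and 0.81 ± 0.55 (adjusted p = 0.272), which did not pass.

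In mature leaves the same pair separated all 3 genotypes. SUS5 stood at 3.996, 5.79 and 5.53 in the B line, 7.50, 6.33 and 8.05 in the hybrid and 9.08, 8.62 and 9.56 in the R line. SUS6 stood at 4.04, 5.09 and 6.18 in the B line, 7.43, 6.27 and 7.99 in the hybrid and 9.48, 8.81 and 9.48 in the R line. No 2 genotypes overlapped in either gene. R line minus B line was 3.98 ± 0.41 (adjusted p = 2.13e-09) and 4.16 ± 0.55 (adjusted p = 4.14e-07). The hybrid exceeded the B line by 2.19 ± 0.41 (adjusted p = 0.000344) and 2.13 ± 0.55 (adjusted p = 0.00914) and lay below the R line by 1.80 ± 0.41 (adjusted p = 0.00413) and 2.03 ± 0.55 (adjusted p = 0.0178). These 4 hybrid calls were lost in a fit of mature leaf arrays alone (adjusted p = 0.0612 to 0.141), and that of SUS5 against the R line also without hybrid replicate 2 (adjusted p = 0.0805). SUS6 lost its call against the B line without hybrid replicate 3 (adjusted p = 0.0756) or B line replicate 1 (adjusted p = 0.101), and against the R line without hybrid replicate 2 (adjusted p = 0.172) or R line replicate 1 (adjusted p = 0.0697) or 3 (adjusted p = 0.0784). In flag leaves SUS5 was higher in the R line by at least 0.14 (adjusted p = 0.000434, and 0.78 with values under 5 set to 5). In roots SUS5 was higher in the R line by 1.60 ± 0.41 in older plants, and in young roots its difference, 0.65 ± 0.41, did not pass. SUS6 was called higher in the R line at all 5 stages. In mature roots its fitted difference was 1.35 ± 0.55, with the B line mean under 5. In flag leaves both parent means of SUS6 were under 5 and have no order. SUS6 was higher in young roots of the R line by at least 0.62 (adjusted p = 0.0472). That call was lost with quantile normalization (adjusted p = 0.085), with values under 5 set to 5 (adjusted p = 0.225) and without B line replicate 1 (adjusted p = 0.163) or 2 (adjusted p = 0.157) or R line replicate 2 (adjusted p = 0.116) or 3 (adjusted p = 0.144).

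**Figure D3:**
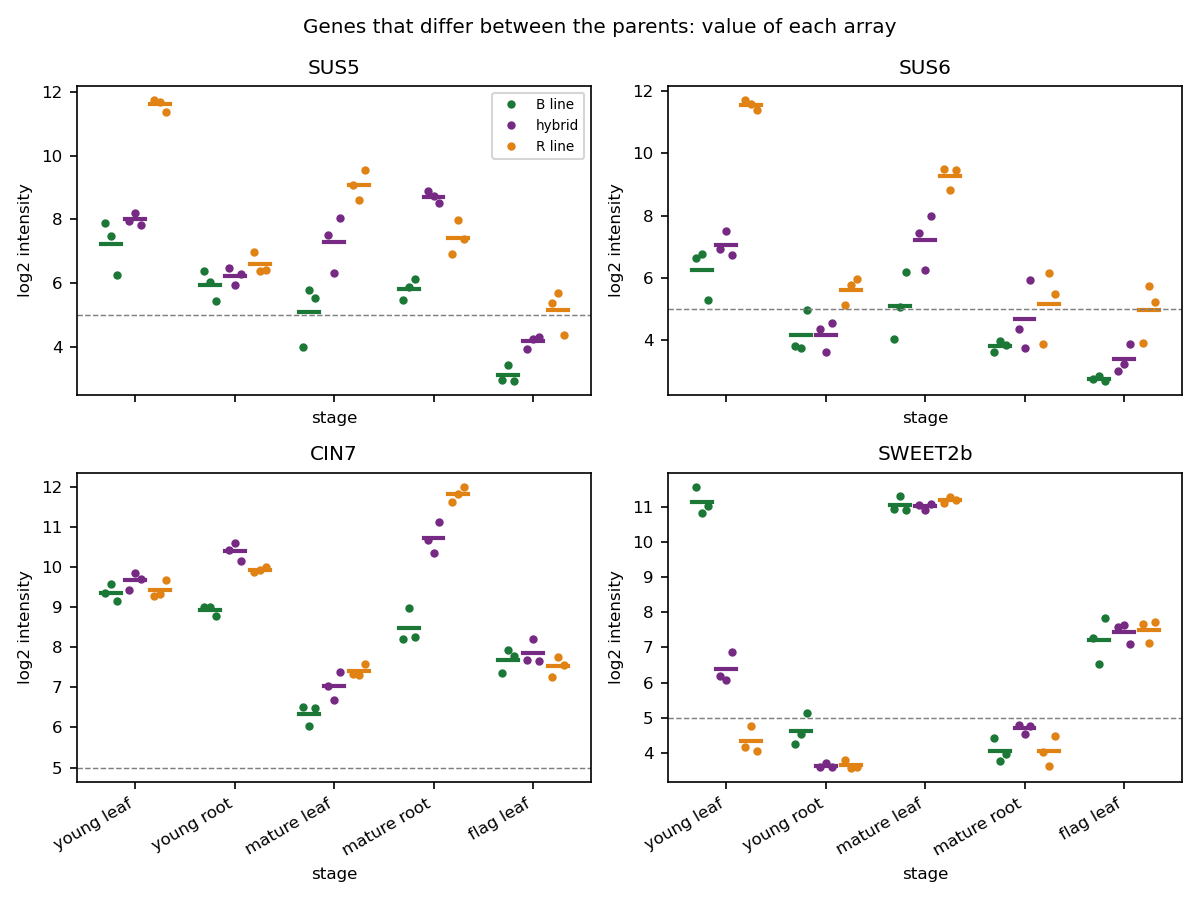
Log2 intensity of each array (points, 3 per group) and group means (short lines) of SUS5, SUS6, CIN7 and SWEET2b at 5 stages in the B line, the hybrid and the R line, with the level of 5 as a dashed line. SUS5 and SUS6 are highest in the R line in young and in mature leaves, CIN7 parts the genotypes in mature roots, and SWEET2b parts them in young leaves while its mature leaf arrays all lie between 10.91 and 11.31.

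Above background, young leaves were the stage at which SWEET2b parted the parents. The B line stood at 11.59, 10.82 and 11.03, the hybrid at 6.19, 6.09 and 6.86 and the R line at 4.16, 4.75 and 4.05. All 3 genotypes were apart, with the hybrid nearer the R line. R line minus B line was at least 6.15 lower (adjusted p = 4.68e-21) and hybrid minus B line -4.77 ± 0.27 (adjusted p = 3.92e-16). In mature leaves the means were 11.06, 11.03 and 11.21, and in flag leaves 7.21, 7.44 and 7.51, with no call between any 2 genotypes. SPS2 was lower in R line than in B line young leaves by 2.50 ± 0.21 (adjusted p = 2.8e-12) and in the hybrid by 1.93 ± 0.21 (adjusted p = 4.13e-09), and SWEET1a was higher in the R line by 2.25 ± 0.48 (adjusted p = 0.000198). SUT2 in the hybrid lay below the B line by 1.51 ± 0.20 (adjusted p = 3.16e-07), but not by its second probe set (adjusted p = 0.921), and SWEET1b by 1.16 ± 0.39 (adjusted p = 0.018). The SWEET1b call was lost without hybrid replicate 2 (adjusted p = 0.114) or B line replicate 1 (adjusted p = 0.0586).

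Clock genes differed between genotypes in the same seedlings. CCA1, a morning gene of the circadian clock, averaged 11.97 in the B line, 9.38 in the hybrid and 7.46 in the R line in young leaves, and 11.63, 7.97 and 7.18 in young roots. PCL1, an evening clock gene, averaged 6.18, 11.17 and 14.41 in young leaves and 5.95, 11.75 and 13.48 in young roots. In mature leaves the 3 means of CCA1 lay between 13.37 and 13.53 and those of PCL1 between 6.24 and 6.37, and in mature roots CCA1 averaged 8.36, 9.70 and 10.28 and PCL1 10.76, 9.78 and 8.79. In flag leaves CCA1 averaged 11.30, 11.68 and 11.24 and PCL1 8.16, 7.92 and 7.85. The labels give no hour of harvest. The part of the clock differences in the genotype comparisons of young leaves, young roots and mature roots was not tested. Means of both clock genes also varied between stages, and their part in the comparisons of organs and ages was not tested either.

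In mature roots CIN7 stood at 8.21, 8.98 and 8.24 in the B line, 10.66, 10.36 and 11.11 in the hybrid and 11.61, 11.82 and 12.00 in the R line. The genotypes did not overlap, with the hybrid between its parents. R line minus B line was 3.33 ± 0.22 (adjusted p = 4.41e-15), hybrid minus B line 2.23 ± 0.22 (adjusted p = 3.91e-10) and hybrid minus R line -1.10 ± 0.22. The other invertases CIN1 and CIN4 were also higher in the R line, by 1.82 ± 0.26 and 1.65 ± 0.28, and CIN7 in mature leaves by 1.06 ± 0.22 (adjusted p = 0.000454). Of the transporters, SWEET1a was higher in the R line by 2.43 ± 0.48 (adjusted p = 5.51e-05, and by 1.38 without B line replicate 2), SWEET2a by 2.09 ± 0.37 (adjusted p = 1.3e-05) and SWEET16 by at least 0.42 (adjusted p = 2.76e-09), and SUT1 was lower by 1.57 ± 0.34. HXK6/HXK7 was higher by 2.07 ± 0.61 (adjusted p = 0.00423). With the 3' index as a covariate SWEET2a (adjusted p = 0.103) and HXK6/HXK7 (adjusted p = 0.0911) lost their calls, while CIN7, SWEET1a and SWEET16 held theirs.

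In young roots SWEET4 was lower in the R line by 1.62 ± 0.35 (adjusted p = 0.000431) and SWEET1b by at least 0.56 (adjusted p = 0.00224, and 0.192 with values under 5 set to 5). The invertases CIN1 and CIN7 were higher, by 1.38 ± 0.26 (adjusted p = 8.37e-05) and 0.997 ± 0.22 (adjusted p = 0.000468). SUS1 was lower in the R line by 1.26 ± 0.43 (adjusted p = 0.0228), a call lost without B line replicate 1 (adjusted p = 0.0585) or 2 (adjusted p = 0.0584) or R line replicate 1 (adjusted p = 0.0581) or 3 (adjusted p = 0.0559). In flag leaves SWEET4 was lower in the R line by 1.53 ± 0.35 (adjusted p = 0.00178, and 0.13 in a fit of flag leaf arrays alone), with overlapping arrays. SWEET1b was lower by 1.51 ± 0.39 (adjusted p = 0.00611), a call lost without B line replicate 2 (-0.72, adjusted p = 0.184) and with flag leaf arrays alone (adjusted p = 0.196).

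The difference between the parents was itself compared between leaf and root. It differed for 15 genes in seedlings (3 with a higher value in leaf, 12 lower), where 41.0% of all tested probe sets did (13.6% and 27.5%), and for 19 in older plants (9 and 10), against 49.0% (27.5% and 21.5%). In older plants the count was 6 with the 3' index as a covariate. SUS4 and SWEET4 were called in opposite directions in the 2 seedling organs. SUS4 was lower in R line than in B line young leaves by 2.03 ± 0.30 and higher in young roots by 1.25 ± 0.30, which differ by -3.29 ± 0.43 (adjusted p = 1.52e-07). SWEET4 was higher in R line young leaves by 1.497 ± 0.35 and lower in young roots by the 1.62 given above, a difference of 3.12 ± 0.49 (adjusted p = 5e-06). For CIN7 the parental gap was narrower in mature leaf than in mature root by 2.27 ± 0.31 (adjusted p = 2.29e-07).

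The hybrid was compared with each parent, in comparisons that share the hybrid arrays. In young leaves 12 genes differed from the B line (3 higher, 9 lower), against 36.4% of all probe sets (24.1% higher, 12.3% lower), and 21 from the R line (12 and 9), against 51.4% (36.7% and 14.7%). In young roots 10 differed from the B line (2 and 8), against 25.7% (14.3% and 11.5%), and 6 from the R line (0 and 6), against 20.7% (10.6% lower). In mature leaves the counts were 4 (4 and 0), against 10.7% (4.16% and 6.49%), and 2 (0 and 2), against 6.84% (1.94% and 4.90%). In mature roots they were 12 (11 and 1), against 34.3% (18.0% and 16.3%), and 15 (7 and 8), against 39.8% (22.1% and 17.7%). In flag leaves they were 4 (3 and 1), against 11.9% (7.86% and 4.05%), and 5 (5 and 0), against 10.7% (7.51% and 3.17%). Several of these counts fell by more than 1.5 times without a single array. In young roots the count against the B line was 5 without hybrid replicate 2 and 6 without B line replicate 2 or 3, and against the R line 3 without R line replicate 1. In mature leaves it was 2 against the B line without hybrid replicate 3, and against the R line 0 without hybrid replicate 2 and 1 without R line replicate 1 or 3. In flag leaves the count against the B line was 2 without hybrid replicate 1 or B line replicate 1 and 1 without hybrid replicate 3 or B line replicate 3.

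Genes outside both parents, called against each in the same direction, numbered 6 in young leaves (3 above and 3 below), against 19.9% of all probe sets (15.3% above, 4.53% below). They numbered 4 in young roots (all below), against 7.14% (4.71% and 2.43%), and 0 in mature leaves, against 0.986% (0.149% and 0.837%). They numbered 2 in mature roots (both above), against 5.03% (3.39% and 1.63%), and 3 in flag leaves (all above), against 2.73% (2.17% and 0.559%). For the count of 0 by limma in mature leaves, 1 gene, SUT2, had an unadjusted p under 0.05 against both parents on the same side (0.000297 and 0.0108), and limma with array weights called 2. In young leaves SUS4 stood at 11.17, 11.56 and 11.89 in the B line, 12.70, 12.96 and 12.44 in the hybrid and 9.29, 9.64 and 9.60 in the R line. All hybrid arrays lay above all parent arrays, by 1.16 ± 0.30 against the B line (adjusted p = 0.00264) and 3.19 ± 0.30 against the R line (adjusted p = 9.72e-11). SWEET14 stood at 9.24, 8.61 and 9.04 in the B line, 6.68, 6.71 and 7.12 in the hybrid and 9.57, 9.81 and 9.69 in the R line. The hybrid lay below both, by 2.13 ± 0.39 (adjusted p = 4.38e-05) and 2.85 ± 0.39 (adjusted p = 1.46e-07).

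SWEET4, which imports hexoses into filling grains in rice, was outside both parents at 3 stages and not always on the same side. In young leaves it stood at 11.82, 11.72 and 11.33 in the B line, 10.61, 10.39 and 10.65 in the hybrid and 13.22, 13.10 and 13.04 in the R line. The hybrid lay below both, by 1.07 ± 0.35 (adjusted p = 0.0149) and 2.57 ± 0.35 (adjusted p = 1.57e-07). In mature roots it stood at 10.79, 10.76 and 11.06 in the B line, 13.41, 13.25 and 13.50 in the hybrid and 11.73, 12.53 and 12.06 in the R line. There the hybrid was the highest on every array, by 2.52 ± 0.35 (adjusted p = 6.05e-07) and 1.28 ± 0.35 (adjusted p = 0.00358). In flag leaves it stood at 7.93, 7.85 and 5.86 in the B line, 8.31, 8.61 and 8.45 in the hybrid and 6.07, 5.52 and 5.46 in the R line. The hybrid was again above all, by 1.25 ± 0.35 (adjusted p = 0.0153) and 2.77 ± 0.35 (adjusted p = 3.38e-07), with 1 B line array far below the other 2. Without that array, B line replicate 3, the flag leaf call against the B line was lost (adjusted p = 0.256), and likewise in a fit of flag leaf arrays alone (adjusted p = 0.19). The young leaf call against the B line was lost without hybrid replicate 2 (adjusted p = 0.0573) or B line replicate 1 (adjusted p = 0.0559), and the mature root call against the R line with the 3' index as a covariate (adjusted p = 0.419).

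**Figure D4:**
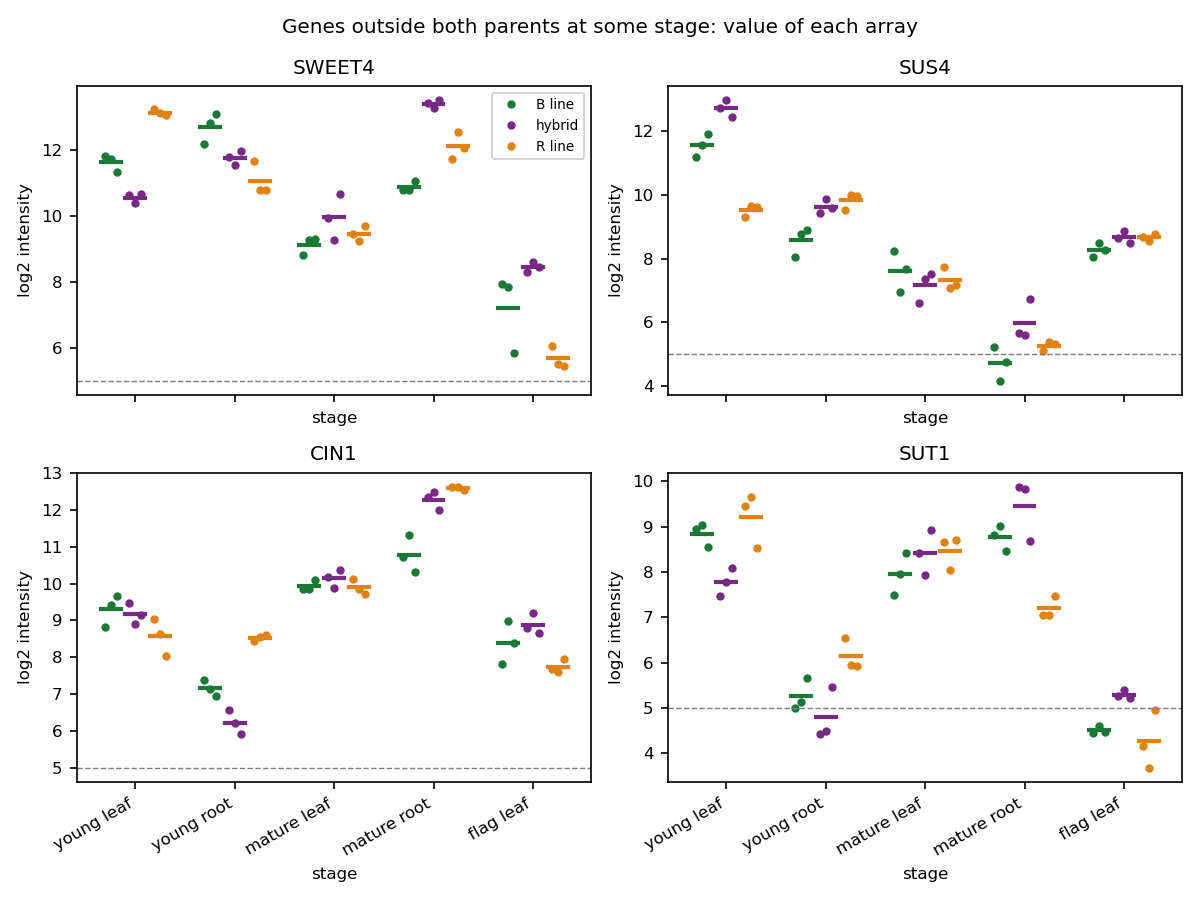
Log2 intensity of each array (points) and group means (short lines) of SWEET4, SUS4, CIN1 and SUT1 at 5 stages in the B line, the hybrid and the R line, with the level of 5 as a dashed line. Hybrid SWEET4 lies below both parents in young leaves and above both in mature roots and flag leaves, hybrid SUS4 above both in young leaves and hybrid CIN1 below both in young roots.

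The other young leaf genes outside both parents were SUT1, SUS2 and MST3. SUT1 stood at 8.95, 9.04 and 8.55 in the B line, 7.47, 7.79 and 8.10 in the hybrid and 9.47, 9.67 and 8.53 in the R line, below both without overlap. The hybrid was lower by 1.06 ± 0.34 (adjusted p = 0.0131) and 1.44 ± 0.34 (adjusted p = 0.00053). SUS2 was above its parents by 1.01 ± 0.30 (adjusted p = 0.00842) and 0.90 ± 0.30 (adjusted p = 0.0128), and MST3 by 1.13 ± 0.40 (adjusted p = 0.0259) and 2.44 ± 0.40 (adjusted p = 4.69e-06). With the spike-ins as a covariate, which differed between these 3 groups as given above, none of the 6 young leaf genes remained outside both parents. Single arrays mattered too, and the 6 were 3 without hybrid replicate 1 or B line replicate 1. SUT1 lost its call against the B line without hybrid replicate 1 (adjusted p = 0.0645) or B line replicate 2 (adjusted p = 0.0529). SUS2 lost its call against the B line without hybrid replicate 1 (adjusted p = 0.0872) or B line replicate 1 (adjusted p = 0.0701) and against the R line without hybrid replicate 1 (adjusted p = 0.129). MST3 lost its call against the B line without hybrid replicate 1 (adjusted p = 0.119) or 3 (adjusted p = 0.0521) or B line replicate 1 (adjusted p = 0.105).

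In young roots the genes below both parents were CIN1, FRK1, SUT4 and SPS1. CIN1 stood at 7.39, 7.13 and 6.94 in the B line, 6.55, 6.21 and 5.91 in the hybrid and 8.43, 8.55 and 8.61 in the R line. The hybrid was lowest on every array, by 0.93 ± 0.26 (adjusted p = 0.00714) and 2.31 ± 0.26 (adjusted p = 1.78e-08). FRK1 was lower by 1.33 ± 0.42 (adjusted p = 0.0168) and 1.27 ± 0.42 (adjusted p = 0.0268), SUT4 by 0.59 ± 0.20 (adjusted p = 0.0252) and 0.997 ± 0.20 (adjusted p = 0.000226), and SPS1 by 0.38 ± 0.12 (adjusted p = 0.0173) and 0.41 ± 0.12 (adjusted p = 0.0111). The green-tissue list was highest in these hybrid roots. Between the hybrid and 1 parent, CIN7 was 1.46 ± 0.22 above the B line (adjusted p = 2.43e-06), SUS4 1.05 ± 0.30 above it (adjusted p = 0.00881), SWEET1b at least 0.56 below it (adjusted p = 0.0375, and 0.2 with values under 5 set to 5), and SUT1 and SPS4F were below the R line by at least 1.14 (adjusted p = 0.00325) and by 0.46 ± 0.17 (adjusted p = 0.0437). The count of 4 was 2 without any 1 of hybrid replicate 1, 2 or 3, B line replicate 2 or 3 or R line replicate 1. Against the B line, CIN1 lost its call without hybrid replicate 3 (adjusted p = 0.0509), FRK1 without hybrid or B line replicate 1 (0.0618 and 0.0751), SUT4 without hybrid replicate 1 or 2 or B line replicate 2 or 3 (0.0515 to 0.113), SPS1 without hybrid replicate 2 or B line replicate 2 or 3 (0.0619 to 0.0954), SUS4 without hybrid replicate 2 or B line replicate 1 (0.0542 and 0.0926) and SWEET1b without hybrid replicate 2 or 3 or B line replicate 1 or 2 (0.0911 to 0.171). Against the R line, FRK1 lost its call without hybrid replicate 1 or 3 or any R line array (0.0542 to 0.0911), SPS1 without hybrid replicate 2 or R line replicate 1 (0.068 and 0.0786) and SPS4F without any hybrid array or R line replicate 1 or 3 (0.0526 to 0.24). SPS4F also lost its call under quantile normalization (adjusted p = 0.0716), with the 3' index (0.0718) and with the spike-ins (0.218). It did so too without the level filter (0.0596) and with young root arrays alone (0.0505). FRK1 lost its call against the R line without the level filter (0.0642). Against the B line, SWEET1b lost its call without the level filter (0.0868), with the 3' index (0.0569) and with young root arrays alone (0.0551).

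In mature roots SUS5 joined SWEET4. It stood at 5.47, 5.89 and 6.12 in the B line, 8.89, 8.72 and 8.50 in the hybrid and 6.92, 7.97 and 7.40 in the R line, with every hybrid array on top. The hybrid exceeded the B line by 2.88 ± 0.41 (adjusted p = 1.14e-06) and the R line by 1.27 ± 0.41 (adjusted p = 0.0135). The second call was lost with the 3' index as a covariate (adjusted p = 0.887), with the spike-ins (adjusted p = 0.362) and without hybrid replicate 1 (adjusted p = 0.0502) or R line replicate 1 (adjusted p = 0.086). The count of 2 became 4 without hybrid replicate 3 and 1 without R line replicate 1. SUT1 was 2.27 ± 0.34 higher than in the R line (adjusted p = 1.72e-06, and 0.0807 with the 3' index), SWEET1a 2.20 ± 0.48 lower (adjusted p = 0.000391, and 0.0824 with mature root arrays alone), CIN4 1.31 ± 0.28 lower (adjusted p = 0.000245, and 0.0619 with the 3' index) and SWEET16 at least 0.42 lower (adjusted p = 5.09e-06). Against the B line, SWEET1b was higher by at least 0.14 (adjusted p = 1.44e-05, and 0.947 with values under 5 set to 5) and HXK6/HXK7 by 1.82 ± 0.61 (adjusted p = 0.0197). That hexokinase call was lost without hybrid replicate 2 (adjusted p = 0.0609) or B line replicate 1 (adjusted p = 0.0622) or 2 (adjusted p = 0.0888). In mature leaves SUT2 and CIN7 were above the B line by 0.81 ± 0.20 (adjusted p = 0.00635) and 0.70 ± 0.22 (adjusted p = 0.0326). The second SUT2 probe set did not show this (adjusted p = 1), and CIN7 lost its call without hybrid replicate 1 (adjusted p = 0.0818) or 3 (adjusted p = 0.208) or B line replicate 2 (adjusted p = 0.179). With the spike-ins as a covariate SUT2 (adjusted p = 0.185) and CIN7 (adjusted p = 0.117) both lost their calls. CIN7 also lost its call with mature leaf arrays alone (adjusted p = 0.0725) and without the level filter (adjusted p = 0.0533).

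In flag leaves 3 SWEET genes were above both parents in the hybrid, SWEET4 as given, SWEET6a/SWEET6b by 0.90 ± 0.28 (adjusted p = 0.0316) and 1.37 ± 0.28 (adjusted p = 0.000839), and SWEET1b by 1.24 ± 0.39 (adjusted p = 0.032) and 2.75 ± 0.39 (adjusted p = 3.29e-06). The SWEET1b arrays of the hybrid and the B line overlapped. Against the B line SWEET6a/SWEET6b lost its call under quantile normalization (adjusted p = 0.135), with the 3' index (adjusted p = 0.101) and without any hybrid array or B line replicate 1 or 3 (adjusted p = 0.0603 to 0.0975). SWEET1b lost its call with the 3' index (adjusted p = 0.126), with flag leaf arrays alone (adjusted p = 0.259) and without any hybrid array or B line replicate 1 or 3 (adjusted p = 0.0534 to 0.283), and its difference was 0.76 without B line replicate 1 and 2.03 without B line replicate 2. The count of 3 was 1 without hybrid replicate 1, 2 or 3 or B line replicate 1 and 0 without B line replicate 3. SUT1 was above the R line by at least 0.30 (adjusted p = 0.045, 0.0514 with the replicate number as a block and 0.762 with values under 5 set to 5), a call lost without any hybrid array or R line replicate 1 or 2 (adjusted p = 0.0749 to 0.31). CIN1 was 1.14 ± 0.26 above the R line (adjusted p = 0.00254, and 0.0645 in a fit of flag leaf arrays alone).

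Genes that feed or sense the same pathway were taken from a second list by symbol, with 13 of 16 tested. Between mature leaf and root 5 were called higher in leaf and 6 lower, near the 86.4% called among all probe sets (35.2% higher, 51.3% lower), and 2 of the 6, TPP3 and TPP4, had both means under 5. Fructose-1,6-bisphosphatase (CFBP1/FBP1), on the route from triose phosphates to sucrose in the cytosol, was at least 7.78 higher in mature leaf (adjusted p = 1.38e-34). The sucrose-phosphate phosphatases SPP1 and SPP2, which complete sucrose synthesis, were higher by 3.73 ± 0.12 and 3.36 ± 0.12. Of the trehalose-phosphate phosphatases, TPP9 was at least 6.29 lower in mature leaf, TPP2 4.91 ± 0.13 lower and TPP1 4.47 ± 0.52 lower. In flag leaves 10 of the 13 were called lower than in mature leaves, 2 of them with both means under 5, where 64.2% of all probe sets were called and 31.0% were lower. The furthest was TPP7 at 4.10 ± 0.32 lower (adjusted p = 1.38e-13).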

How the data were processed

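Per the submitters' processing notes, the authors made the deposited intensity values with GCRMA, whose version is not given in the sources used here. They were turned to log2 with no further normalization (no value was under 1), and no column belonged to another sample. The 123 control probe sets and those with no group mean of 5 or more were left out, which kept 24130 of 57381. The array annotation pairs 22436 probe sets with 1 gene, 95 with several and 34850 with none. A gene with several probe sets (7 of the 42) was represented by that with the highest mean over the 45 arrays.

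One mean per group was fitted with limma 3.58.1 in R 4.3.3 (30 residual degrees of freedom). Contrasts between tissues or ages averaged the genotypes, and p-values were adjusted by Benjamini-Hochberg over all tested probe sets, with a threshold of 0.05. The steps were tested on simulated data. The 10 genes with the largest called difference in each tissue or age comparison, the 5 in each genotype comparison and all genes outside both parents were to be named with their statistics, beside levels of any other gene. The genes, lists, clock genes and tests were chosen with earlier results of these data known. Residual correlations of replicates with the same number averaged -0.1142 to 0.0495 by stage, so the numbers were not used as pairs. In single sets they ran from -0.1591 to 0.1403. Alternatives were array weights, quantile normalization, fits of single stages, no filter on levels, the replicate number as a block, the lowest probe set, a floor of 5, the 3' index or spike-ins as covariates, each array left out, and, chosen after seeing the data, the R line arrays left out.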

Additional observations from a re-analysis of the deposited data

Results flagged for a closer look

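The difference between the parents (R line minus B line) was itself different in leaf and root for the genes named here, by the limma test of that difference. In seedlings, leaf against root, it was -5.85 ± 0.38 for SWEET2b (adjusted p = 3.25e-14), where the root means of both parents were under 5. It was 3.12 ± 0.49 for SWEET4 (adjusted p = 5e-06) and -3.29 ± 0.43 for SUS4 (adjusted p = 1.52e-07), both called in opposite directions in the 2 organs. SUS6 differed by 3.87 ± 0.78 (adjusted p = 0.000152), from fitted values of 5.31 in leaf and 1.44 in root, where the B line root mean was under 5 (4.18) so that its size is not exact, and SUS5 by 3.75 ± 0.59 (adjusted p = 3.96e-06), from 4.39 and 0.65.

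In older plants the values were 2.81 ± 0.78 for SUS6 (adjusted p = 0.00329, with the B line root mean again under 5, at 3.82), 2.38 ± 0.59 for SUS5 (adjusted p = 0.00108) and 2.14 ± 0.47 for HXK2/HXK3 (adjusted p = 0.00036), 3 calls lost with the 3' index as a covariate (adjusted p = 0.136, 0.311 and 0.154). The second HXK2/HXK3 probe set did not give its call either (adjusted p = 0.403). For SWEET16 the value was -2.33 ± 0.42 (adjusted p = 2.12e-05), with leaf means under 5, and for CIN7 -2.27 ± 0.31 (adjusted p = 2.29e-07).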

How the results depend on the processing

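Quantile normalization, the lowest probe set and the replicate number as a block moved 0 of the 27 counts of called genes by more than 1.5 times (with the replicate block the young leaf minus young root count stayed 26), and leaving out the R line arrays moved 0 of the 5 tissue and age counts. The block changed 1 named call, SUT1 of flag leaves, hybrid minus R line (adjusted p = 0.0514). With the 3' index as a covariate the count was 18 for mature minus young leaf, 3 for hybrid minus R line and 10 for R line minus B line in mature roots, 6 for the parental difference in mature leaf against root and 0 outside both parents in mature roots. With the spike-ins it was 7 and 11 for the hybrid minus the B and R line in young leaves, 6 for R line minus B line in young roots, 2 for hybrid minus B line in mature leaves, 8 for hybrid minus R line in mature roots and 0 outside both parents in young leaves. With array weights it was 12 for hybrid minus R line and 20 for R line minus B line in young roots, 4 and 5 for these in mature leaves, and outside both parents 2 in mature leaves and 5 in mature roots. With 1 stage fitted alone it was 1 and 1 for the hybrid minus the B and R line in mature leaves, 3 for hybrid minus R line in flag leaves, and outside both parents 7 in young roots, 1 in mature leaves and 1 in flag leaves. Without the level filter it was 7 for R line minus B line in young roots, 2 for hybrid minus B line in flag leaves and 1 outside both parents there. With values under 5 set to 5 it was 3 for R line minus B line in flag leaves and 4 outside both parents in mature roots. Leaving out 1 array gave 5 to 8 (hybrid minus B line), 3 to 5 (hybrid minus R line) and 6 to 10 (R line minus B line) in young roots, 2 to 6 and 0 to 2 for the hybrid minus the B and R line in mature leaves, 1 to 4 for hybrid minus B line in flag leaves, and outside both parents 3 to 8 in young leaves, 2 to 3 in young roots, 1 to 4 in mature roots and 0 to 3 in flag leaves. Of 2649 alternative values for the 137 named differences, 2495 kept direction and side of the threshold, 153 lost the call, and 1 reversed, SUS2 of young leaves, hybrid minus R line, with the spike-ins as a covariate (-0.32). The causes were not tested. Levels near 5 limit what can be ordered.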

Other observations

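The 13 other genes of the pathway were sucrose-phosphate phosphatases, cytosolic fructose-1,6-bisphosphatase, neutral invertases, SnRK1 kinases and trehalose-phosphate phosphatases. Of their genotype comparisons only extremes are given here, those with the most calls in 1 direction and those with no call. Each is set beside the share over all probe sets, and the other comparisons are not described. In young leaves 6 of the 13 (46.2%) were called lower in the hybrid than in the B line and 0 higher. Of all tested probe sets 36.4% were called there (24.1% higher, 12.3% lower). In mature roots 6 (46.2%) were called higher in the hybrid than in the R line and 0 lower, where 39.8% of all probe sets were called (22.1% higher, 17.7% lower). TPP4 is 1 of the 6 in both, with both means under 5 and so without order. In mature leaves limma called 0 of the 13 between the hybrid and either parent, where 10.7% and 6.84% of all probe sets were called. An unadjusted p under 0.05 was found there for TPP9 and SNRK1B against the B line and for SPP2 and TPP9 against the R line.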
